A study of Mus musculus with 2 samples.

Results

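MicroRNA genes were examined for peaks in a chromatin immunoprecipitation (ChIP-seq) of Usp16, a deubiquitinase that removes ubiquitin from histone H2A, in mouse blood stem and progenitor cells. All 1228 RefSeq genes of biotype miRNA on the assembled chromosomes of GRCm38 were taken, of 49943 annotated genes in all. A microRNA gene was said to carry a peak if at least 1 bp of a listed peak fell no farther than 1 kb from either annotated end of the gene. The study compared 1 library made with an antibody against Usp16 and 1 library made with IgG, an antibody with no chosen target. Both came from bone marrow cells positive for c-Kit and Sca-1 of mice carrying an Mx1 Cre transgene and loxP-flanked Usp16 alleles (Usp16loxp/loxp), so both libraries share these alleles. The Mx1 promoter answers to interferon in many cell types, and whether Cre was switched on, how many mice were pooled and how old they were is not given in the labels. The list analysed holds 5079 peaks of the anti-Usp16 library, 5046 of them on the assembled chromosomes. The IgG signal itself was not analysed here, the read depth is unknown, and no replicate exists, so no test across samples was possible. The cell type could not be checked against markers, since a peak list does not measure expression.

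MicroRNAs are short RNAs that pair, through a seed near their 5′ end, with messenger RNAs and lower their translation or stability. Most are cut from a hairpin within a longer primary transcript, and many hairpins lie inside introns of coding genes or of long non-coding RNAs (lncRNAs). The start of that primary transcript can lie far from the hairpin, so a peak at the hairpin and a peak at the start of its transcript are different measurements. In blood, miR-125, miR-99 and let-7 microRNAs of shared clusters are known for roles in stem cells, miR-223 and miR-142 for leukocytes, miR-144 and miR-451 for red cells and miR-150 and miR-155 for lymphocytes.

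Few microRNA genes carried a peak: 41 of 1228 did (3.34%, 95% interval 2.41 to 4.50%), against 7.88% of all annotated genes and 13.9% of protein-coding genes. A hairpin gene is so short that the windows at its ends merge, while those of a long gene lie apart. Less sequence was therefore searched per microRNA gene, here and in each comparison with longer genes below, and no share was adjusted for this. Intervals are exact Clopper-Pearson intervals and cover counting error only, and neighbouring genes can share a peak. These 41 genes were reached by 39 distinct peaks, which made up 0.773% of the peaks on assembled chromosomes, and no microRNA gene had more than 1 peak. They lay on 17 chromosomes. Of the 41 genes, 34 lay within 5 kb of an end of a protein-coding gene and 7 lay farther away.

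The sequences below come from 4 genes with a peak whose families or clusters are known from blood, brain or cell division (Mir99b, Mir351, Mir503 and Mir7b) and from 3 cluster partners without one (Mirlet7e, Mir125a and Mir322). Mir2861 and Mir3091, both with a peak, are added because they share a seed. Mature sequences are from RefSeq on GRCm38.p6, written 5′ to 3′, with the seed (bases 2 to 8) in capitals.
miR-99b-5p: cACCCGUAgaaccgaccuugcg
let-7e-5p: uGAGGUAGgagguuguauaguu
miR-125a-5p: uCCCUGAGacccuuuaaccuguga
miR-351-5p: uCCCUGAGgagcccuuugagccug
miR-503-5p: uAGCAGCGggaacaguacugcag
miR-322-5p: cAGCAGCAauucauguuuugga
miR-7b-5p: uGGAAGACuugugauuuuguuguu
miR-2861: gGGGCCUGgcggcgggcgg
miR-3091-3p: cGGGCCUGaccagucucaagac
The seed of miR-351-5p, CCCUGAG, is the seed of miR-125a-5p and is also listed for Mir125b-1, Mir125b-2, Mir6367 and Mir6394. That of miR-99b-5p is shared with Mir99a and Mir100, and that of miR-7b-5p with Mir7-1 and Mir7-2. The seed of miR-503-5p belonged to no other listed gene, while that of its neighbour miR-322-5p was shared with 10 genes, among them Mir15a, Mir15b, Mir16-1 and Mir16-2. The seed of miR-2861 was the same as that of miR-3091-3p. Among the 37 genes with a peak and a mature sequence in the table, no others had a seed in common. In all, 37 of the 41 genes had a mature sequence in the table, with 53 mature arms and 52 distinct seeds. For 38 of the 53 arms no other listed gene had the same seed.

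The share of microRNA genes with a peak fell with distance from coding genes. Within 5 kb of a coding gene end, 34 of 419 microRNA genes carried a peak (8.11%, interval 5.68 to 11.2%), and for all other non-coding genes at this distance the share was 9.54% (571 of 5985). Farther than 5 kb, 7 of 809 microRNA genes did (0.865%, interval 0.349 to 1.77%), against 1.41% of the other non-coding genes (293 of 20843). The interval of the microRNA share held the share of the other non-coding genes in both classes. That share pools unlike gene types. Within 5 kb it was 9.80% for lncRNA genes, 17.4% for small nucleolar RNA genes and 15.7% for small nuclear RNA genes. For transfer RNA genes it was 73.1% and for pseudogenes 1.55%. Farther away the 5 shares, in the same order, were 1.67, 0.282, 4.58, 24.0 and 0.246%. In finer steps the share was 18% of the 150 microRNA genes within 1 kb of a coding gene end and 2.6% of the 269 at 1 to 5 kb. It was 1.31% of the 306 at 5 to 20 kb, 0.649% of the 308 at 20 to 100 kb and 0.513% of the 195 beyond 100 kb. Other non-coding genes followed the same order, with 15.8, 4.88, 2.63, 1.08 and 0.606% in the same steps. Part of this gradient is built in, because the window at a microRNA gene close to a coding gene end also covers that end.

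**Figure D1:**
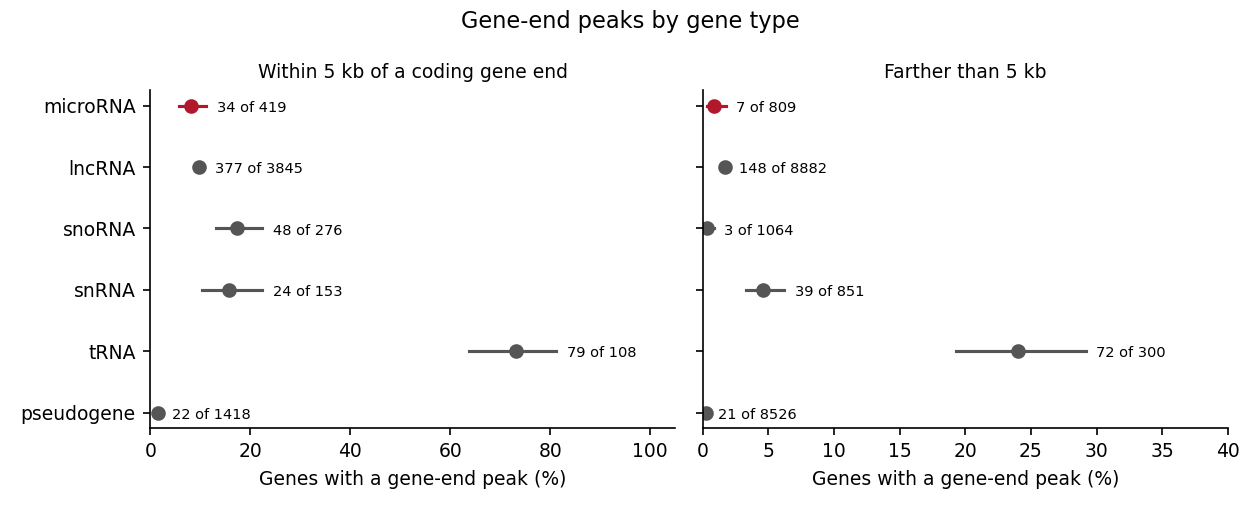
Share of genes with a gene-end peak (x axis, %) by gene type, for genes within 5 kb of a coding gene end (left) and farther away (right); bars are exact 95% intervals, the numbers give genes with a peak of all genes, and the x axes differ in scale. MicroRNA genes, in red, stand at 8.11% and 0.865%, near lncRNA genes at 9.80% and 1.67% and under tRNA genes at 73.1% and 24.0%.

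Which end of the coding gene lay nearby went with the presence of a peak. RefSeq promoter windows give the strand of most coding genes. Where the nearest coding gene end within 5 kb was a 5′ end, 24 of 155 microRNA genes carried a peak (15.5%, interval 10.2 to 22.2%), and at a 3′ end 3 of 191 did (1.57%, interval 0.325 to 4.52%). The intervals did not overlap, and no test of the difference was made. Other non-coding genes had 12.6% (377 of 2999) at 5′ ends and 5.05% (83 of 1644) at 3′ ends. The microRNA interval at 5′ ends held the share of the other non-coding genes, and the one at 3′ ends lay below theirs. Many of the other non-coding genes are longer, so more sequence was searched at them. The 3 microRNA genes at 3′ ends were Mir3569, Mir6948 and Mir99b, and the Mir3569 peak also reached Kmt2b and the Mir6948 peak also reached Cdh24. For 73 microRNA genes the strand of the nearest coding gene was not in the table, and 7 of them carried a peak. Within 1 kb of the coding gene end the window also covers that end. There 19 of 68 microRNA genes carried a peak at 5′ ends (27.9%, interval 17.7 to 40.1%). At 3′ ends 2 of 56 did (3.57%, interval 0.435 to 12.3%).

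**Figure D2:**
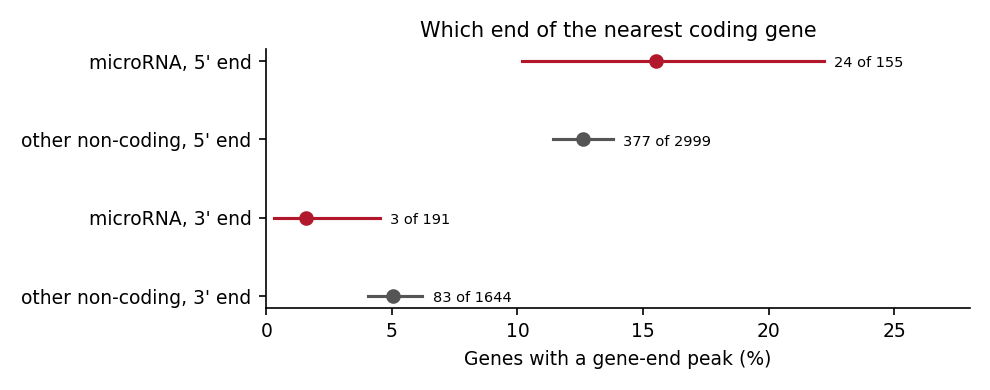
Share of genes with a gene-end peak (x axis, %) among genes within 5 kb of a coding gene end, by whether the nearest coding end is a 5′ or a 3′ end; bars are exact 95% intervals. MicroRNA genes stand at 15.5% beside 5′ ends and 1.57% beside 3′ ends.

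Peaks of the microRNA genes close to coding genes mostly came within 1 kb of a coding gene end as well. This is partly built in, because 27 of these 34 microRNA genes lay within 1 kb of such an end themselves. Of all 39 peaks, 32 also reached an end of a protein-coding gene, 22 of them of exactly 1 and 10 of 2 or more. How many of all 5046 peaks on assembled chromosomes reach such an end is not given here. These counts therefore cannot be called high or low for peaks of this list. Among the 33 peaks near coding genes only the peak at Mir99b reached no coding gene end. The peak overlapped the hairpin itself at 20 of the 41 genes, all of them near a coding gene end, and its midpoint lay inside the hairpin at 2. For the 37 peaks outside chromosome 18, for which start sites were listed, the median distance from midpoint to the nearest listed transcription start was 475 bp and to the nearer end of the hairpin 408 bp. The midpoint was nearer to a listed start than to the hairpin for 14 of the 37. The distance to the hairpin is limited by the window, since only peaks that reached it were taken. A listed start lay within 500 bp of the midpoint for 19 of the 37 peaks and within 1 kb for 25, and genes without a listed start count as far here. The like counts over all peaks are not given either. Along the strand of the hairpin, known for 38 genes, the midpoint lay upstream of the hairpin's 5′ end at 23 and downstream at 15.

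**Figure D3:**
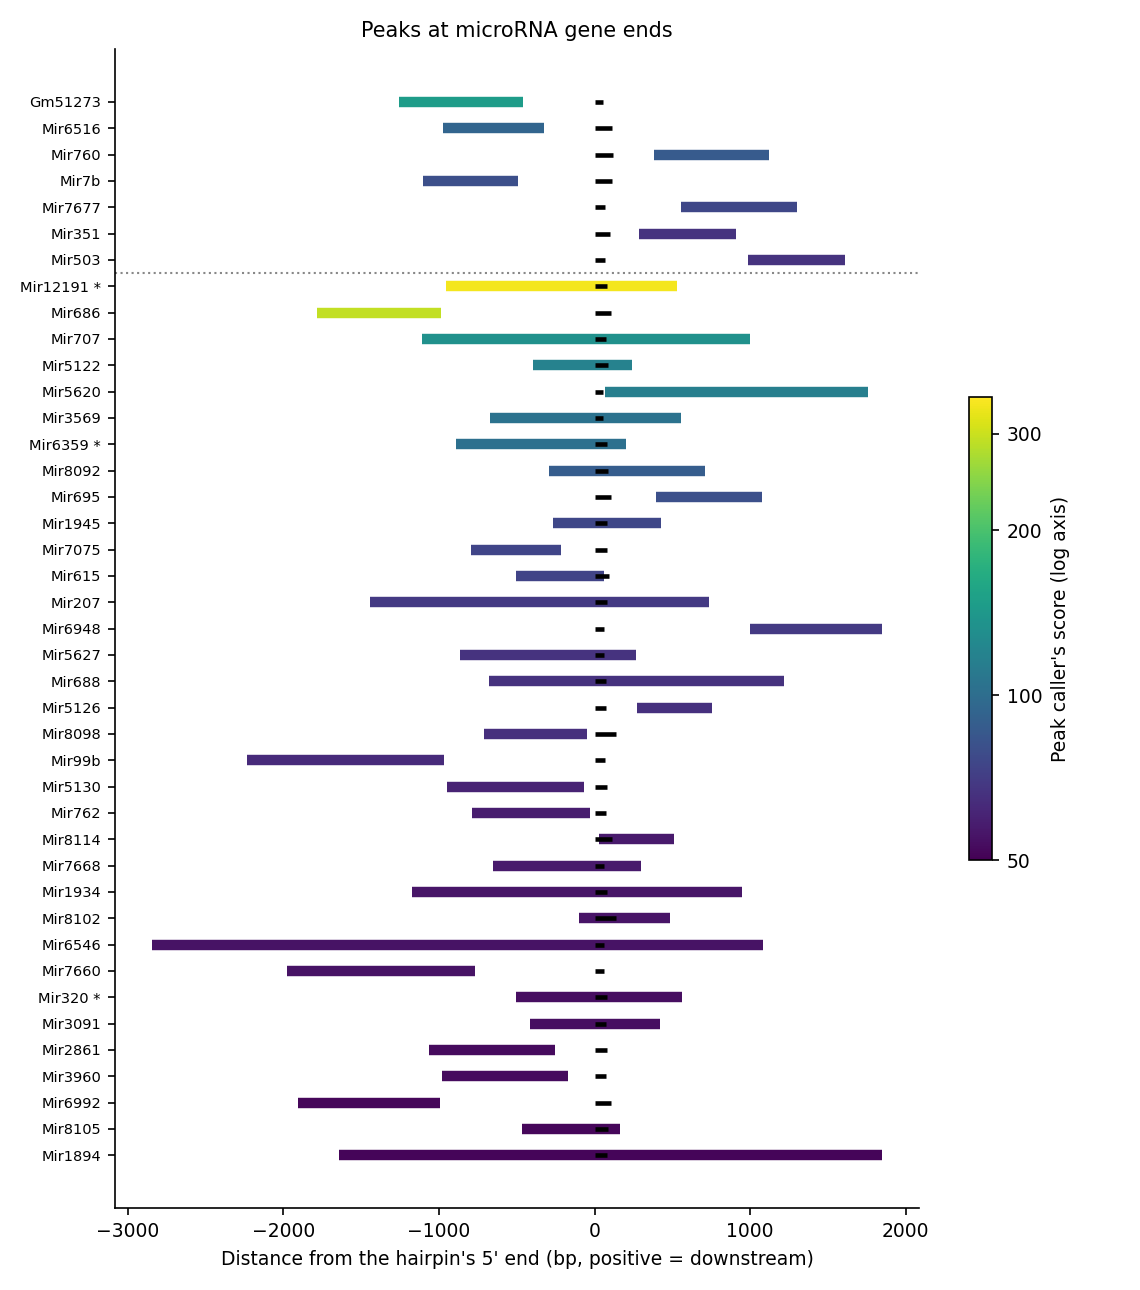
Each bar is a peak at 1 of the 41 microRNA genes, drawn against the hairpin (black, from 0) in bp along the hairpin's strand; genes with an asterisk have no listed strand and are drawn in genome direction. Colour gives the peak score, from 51.4 to 338; the 7 genes above the dotted line lie farther than 5 kb from a coding gene end and none of their peaks overlaps the hairpin, while 20 of the 34 below it have an overlapped hairpin.

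Scores at microRNA genes were those of ordinary peaks. The score is the value the authors' peak caller gave each peak, and it only ranks peaks within this list. The 39 peaks had a median score of 66.7 (quartiles 56.4 and 87.5, interval of the median 58.3 to 79.8), and the other peaks had a median of 70.0 (quartiles 57.9 and 97.0). Their median width was 838 bp, with 682 bp for the other peaks. Among them, the 6 peaks away from coding genes had a median score of 83.4 (range 66.7 to 146), and the 33 near coding genes 65.3 (range 51.4 to 338). These ranges overlap.

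The 7 microRNA genes away from coding gene ends had the following surroundings. At 4 of them the peak lay at an end of a lncRNA gene, at 1 beside a transfer RNA (tRNA) gene, and at 2 inside a coding gene far from its ends. Gm51273, which encodes miR-12194, lies on chromosome 3 from 55887284 to 55887339 inside Nbea, the gene of the neuronal scaffold protein neurobeachin, 101997 bp from the nearest coding gene end. Its peak, of score 146, began 460 bp from the hairpin (55887799 to 55888594) and reached no end of a coding, lncRNA or tRNA gene. Mir7677, on chromosome 17 from 27091245 to 27091311, lies inside Itpr3, a gene for an inositol trisphosphate receptor that releases calcium. Its peak of score 75.8 lay 490 bp downstream of the hairpin and likewise reached none.

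Mir6516 and Mir7b lay beside lncRNA genes. The hairpin of Mir6516 (chromosome 11, 117077348 to 117077457) lies inside Snhg20, a small nucleolar RNA host gene, and the peak of score 93.4 overlapped the start of Snhg20, with its midpoint 87.5 bp from that start. Its mature sequences are miR-6516-5p and miR-6516-3p, neither of which shares a seed with another listed gene. Mir7b (chromosome 17, 56242988 to 56243098), a member of the miR-7 family known from brain and endocrine cells, had a peak of score 79.8 that ended 493 bp upstream of its hairpin. This peak lay inside the lncRNA gene A230051N06Rik (56241716 to 56242805), with the midpoint 475 bp from its start. Mir760 (chromosome 3, 122293585 to 122293703) had a peak of score 87.0 over the tRNA gene n-TRtct2 (122292948 to 122293032), 262 bp downstream of the hairpin.

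Mir351 and Mir503 shared the remaining peak. They belong to a cluster of 7 microRNA genes on the X chromosome (53047997 to 53054349) that runs from Mir450b through Mir450-1, Mir450-2, Mir542, Mir351 and Mir503 to Mir322. In cell culture miR-503 and miR-322 are known to lower cyclins and other cell cycle genes. The peak (chrX:53052447-53053069, score 66.7) lay 186 bp from Mir351, 915 bp from Mir503 and 1.19 kb from Mir322, so the last of these fell just outside the window. On the minus strand, from which these hairpins are read, it stood downstream of Mir503 and Mir351. Its midpoint was 354 bp from an end of the lncRNA gene C430049B03Rik, which contains Mir351, Mir503 and Mir322.

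Near coding genes, the highest score was 338 at Mir12191 on chromosome 18, inside Fam53c, and the peak overlapped the hairpin. Next came Mir686 on chromosome 14 (54616677 to 54616785), inside Psmb5, the gene of a catalytic proteasome subunit, with a score of 293. Here the peak lay over the start of Psmb5, 988 bp from the hairpin, so Mir686 was counted at the edge of its window. Of all 41 microRNA genes with a peak, these 2 had the highest scores by a wide margin.

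The next scores near coding genes ran from 133 down to 102. Mir707 (133) lies in Akt1s1, an inhibitor of the growth kinase complex mTORC1, and its peak also reached Tbc1d17. Mir5620 (115) lies in Clcn4, a chloride and proton exchanger gene. Mir3569 (104) lies in the lncRNA gene Gm32082, and its peak reached ends of Kmt2b, a histone H3 lysine methyltransferase gene, and Zbtb32, a transcriptional repressor gene. Mir6359 (102), on chromosome 18, lies in Rttn, a gene of centriole assembly. At Mir707, Mir3569 and Mir6359 the peak overlapped the hairpin, and at Mir5620 it began 13 bp from it.

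Lower scores were spread over coding genes of many functions. Mir8092 (88.1) lies in the zinc finger gene Zfp518a, Mir695 (80.5) in Pigu, whose product helps attach glycolipid anchors to proteins, and Mir7075 (74.5) in Terf2, which protects chromosome ends. Mir1945 (75.4) lay beside Gspt1, a translation termination factor gene, and its peak midpoint was 3 bp from the hairpin. Mir615 (73.8) lies within Hoxc5, in the HoxC cluster of developmental transcription factors (chromosome 15, 103014910 to 103015001), and the peak overlapped its hairpin. Mir207 (69.8) lies in Dnaja1 and Mir5627 (66.5) beside Dnajb9, both genes of co-chaperones of Hsp70. Mir6948 (69.7) lies in Acin1, an RNA-binding protein gene, and Mir688 (66.2) beside Atp5g2, a gene of the ATP synthase ring. Mir5126 (65.3) lies in Dner, a Notch ligand gene, Mir8098 (65.1) in Wdfy2, Mir99b (62.9) in Spaca6, a gene of sperm and egg fusion, and Mir5130 (60.1) in Kctd12, an auxiliary subunit gene of GABA receptors. The other 14 microRNA genes near coding genes scored between 51.4 and 58.3, close to the lowest score listed, 50. Among these were Mir762 in Bcl7c, Mir8114 at Glul, Mir2861 and Mir3960 at Cdk9, Mir3091 in Rps21, Mir8105 beside Smarcc2, Mir320 at Polr3d and Mir6546 in Fcgr3. The rest were Mir7668 in Zfp27, Mir1934 beside Mpdu1, Mir8102 beside Pip4k2b and Cwc25, Mir7660 in Cand2, Mir6992 in Stx5a and Mir1894 in Ppp1r10.

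Some of these peaks also reached ends of tRNA or lncRNA genes, that is, came within 1 kb of them. Of the 39 peaks, 3 reached tRNA genes and 9 reached lncRNA genes. Among all 5046 peaks on assembled chromosomes, 88 reached a tRNA gene end. The like count for lncRNA genes is not given here, and neither difference was tested. The Mir6546 peak, 3930 bp wide, reached 5 tRNA genes beside Fcgr3, and the Mir8105 peak reached n-TScga2. Mir320 (chromosome 14, 70443510 to 70443591) is 39 bp from the end of Polr3d, the gene of an RNA polymerase III subunit, and its peak of score 53.8 overlapped the hairpin, with its midpoint inside it. MiR-320 is known as a microRNA that is made without the nuclease Drosha. Without the peaks at tRNA gene ends 38 of the 41 microRNA genes remained.

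Several peaks at microRNA genes reached the promoter window of a listed start. Windows are RefSeq promoters of GRCm38.p6, from 250 bases before to 50 after a start, and 34 listed windows of 25 genes were reached by a peak at a microRNA gene end. The 3 below are the start of Snhg20, inside which Mir6516 lies, the one beside Mir8114 at Glul, the glutamine synthetase gene, and the start of the lncRNA Gm33457 beside Mir2861, Mir3960 and Cdk9. Cdk9 encodes the kinase that releases paused RNA polymerase II. Capitals mark the motifs named in the next paragraph, on either strand.
Snhg20, chr11:117076533-117076832, plus strand: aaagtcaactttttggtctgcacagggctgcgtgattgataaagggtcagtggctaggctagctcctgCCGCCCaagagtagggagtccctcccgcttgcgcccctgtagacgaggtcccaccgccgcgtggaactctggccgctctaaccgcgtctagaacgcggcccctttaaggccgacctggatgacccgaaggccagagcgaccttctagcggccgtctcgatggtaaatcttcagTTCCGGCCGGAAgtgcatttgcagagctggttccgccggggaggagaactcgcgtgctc
Glul, chr1:153899679-153899978, plus strand: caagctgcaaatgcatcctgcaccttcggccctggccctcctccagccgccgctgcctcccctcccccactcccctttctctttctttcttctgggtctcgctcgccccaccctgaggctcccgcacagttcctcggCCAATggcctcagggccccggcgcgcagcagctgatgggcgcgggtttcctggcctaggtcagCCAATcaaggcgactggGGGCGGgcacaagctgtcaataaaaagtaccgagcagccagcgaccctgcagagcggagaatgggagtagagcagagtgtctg
Gm33457, chr2:32713060-32713359, plus strand: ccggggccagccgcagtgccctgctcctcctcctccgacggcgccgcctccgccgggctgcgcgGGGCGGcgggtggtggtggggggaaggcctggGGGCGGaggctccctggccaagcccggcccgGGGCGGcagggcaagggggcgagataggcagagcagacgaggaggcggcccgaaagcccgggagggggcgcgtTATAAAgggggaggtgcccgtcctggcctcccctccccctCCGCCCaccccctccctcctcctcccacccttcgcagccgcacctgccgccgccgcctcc
The Snhg20 window holds the ETS core on both strands side by side and 25 CpG pairs. That of Glul holds the CCAAT box and the GC box, and that of Gm33457 holds GC boxes and the letters TATAAA. The Snhg20 window lies wholly under its peak and that of Gm33457 for the most part, with its first GC box outside. The peak reaches only the last bases of the Glul window, so all motifs marked there lie outside the peak. A motif count below therefore describes a window that a peak touches, not the bases under the peak.

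Each motif was searched as letters on both strands, and no motif is part of another. The GC box GGGCGG was found in 82.4% of the 34 windows, against 63.1% of the 2970 windows reached by any peak and 35.6% of all 32817 listed windows. The ETS core CCGGAA was in 35.3, 38.7 and 14.9% of the same sets, and the CCAAT box CCAAT in 44.1, 37.2 and 37.4%. The NRF1 motif was in 5.88, 2.39 and 0.966%, the CRE TGACGTCA in 2.94, 3.80 and 1.79% and the E-box CACGTG in 5.88, 11.5 and 7.15%. TATAAA was in 5.88, 6.90 and 13.6%, and the YY1 letters AAGATGG in 5.88, 9.36 and 6.34%. Windows at microRNA genes had a median of 24 CpG pairs and 62.8% G and C, windows under any peak 22 and 60.7%, and all windows 7 and 52.7%. Several windows belong to one gene and overlap, so they are not independent, and a match is no binding site.

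Hairpins with a peak were rich in G and C. The median G and C content was 62.8% for the 34 hairpins with a peak and a listed sequence (quartiles 55.8 and 69.5%), and 51.4% for the 971 without a peak (quartiles 44.6 and 57.3%). Within 5 kb of a coding gene end the medians were 64.8% with a peak and 55.4% without, and farther away 56.0% and 49.0%. A CpG pair was absent from 3 of the 34 hairpins with a peak (8.82%) and from 334 of the 971 without (34.4%). The part of base composition in the presence of a peak was not tested.

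Blood-related microRNA genes seldom carried a peak. Of 84 such genes 3 did (3.57%, interval 0.743 to 10.1%), close to the 3.34% of all microRNA genes. These were Mir99b, Mir351 and Mir503, through 2 peaks with scores of 62.9 and 66.7. The blood list was chosen with earlier results of these data known. Of the 40 list members near a coding gene end 1 carried a peak (2.5%, interval 0.0633 to 13.2%), against 8.11% of all microRNA genes there. Of the 44 farther away 2 did (4.55%, interval 0.555 to 15.5%), against 0.865% of all microRNA genes there. The pair farther away shares 1 peak. List members lay nearer to peaks than microRNA genes as a whole, with a median distance of 61.5 kb against 81.8 kb, and 27.4% against 16.0% had a peak within 10 kb. More of them lay near coding gene ends, 40 of 84 against 419 of all 1228. Over all microRNA genes the median distance was 31.9 kb near such ends and 149 kb farther away. Neighbouring list members also share peaks. The part of either in the difference was not tested.

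Mir99b is the first gene of a short cluster with Mirlet7e and Mir125a (chromosome 17, 17830188 to 17830879), whose members are known to be high in blood stem cells, and miR-125a to raise stem cell number in mice. Its peak (chr17:17827957-17829223, score 62.9) lay upstream of all 3 hairpins, 965 bp from Mir99b, 1.13 kb from Mirlet7e and 1.59 kb from Mir125a. It lay inside Spaca6 and reached no end of a coding gene. With the window set at 500 bp Mir99b was no longer counted. Among the paralogs, the nearest peak stood 6.49 kb from Mir125b-2, 53.8 kb from Mir99a, 53.1 kb from Mirlet7c-1, 69.3 kb from Mir100 and 120 kb from Mir125b-1.

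Within 5 kb of the hairpin lay the peak of 8 more list members. Mir150 had its nearest peak at 2 kb (score 62.6), Mir21a, an abundant microRNA of activated leukocytes, at 2.37 kb (57.0), Mir196b, in the HoxA cluster, at 2.96 kb (52.6) and Mir146b, a brake on inflammatory signalling, at 3.6 kb (67.0). Mirlet7e, Mir125a and Mir322 share the peaks already described, and Mir106b was the eighth, at 4.82 kb. A further 12 of the 84 had a peak at 5 to 10 kb, 17 at 10 to 50 kb, 7 at 50 to 100 kb and 37 beyond 100 kb. As shares these 6 bins from near to far are 3.57, 9.52, 14.3, 20.2, 8.33 and 44.0%, and for all microRNA genes 3.34, 5.78, 6.92, 23.0, 13.7 and 47.2%.

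The 12 members at 5 to 10 kb were Mir93 (5.02 kb), Mir25 (5.23 kb), Mir210 (5.19 kb), Mir196a-2 (6.28 kb), Mir125b-2, Mir193a (6.79 kb), Mir425 (9.09 kb), Mir191 (9.56 kb), Mir23a (9.52 kb), Mir27a (9.67 kb), Mir24-2 (9.82 kb) and Mir10b (9.70 kb). Of these, Mir25 and Mir93 lie with Mir106b in Mcm7, and Mir191 and Mir425 in Dalrd3.

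Other list members lay farther from a peak, and those described next were picked after their distances were seen. Mir223, of the granulocyte lineage, had its nearest peak at 285 kb, and Mir142, which marks all leukocytes, at 211 kb, as did Mir142b. Mir144 and Mir451a of red cells had theirs at 40.5 and 40.7 kb, Mir486 at 46.6 kb, Mir155 at 20.8 kb and Mir126a, known from stem cell quiescence and endothelium, at 29.3 kb. The 6 genes of the growth-promoting cluster from Mir17 through Mir18, Mir19a, Mir20a and Mir19b-1 to Mir92-1 lay 252 to 253 kb from a peak, and its X-linked copy (Mir106a, Mir18b, Mir20b, Mir19b-2, Mir92-2 and Mir363) 288 to 289 kb. Mir15a and Mir16-1 stood at 231 and 232 kb, Mir15b and Mir16-2 both at 306 kb, Mir221 and Mir222 both at 1510 kb, and the p53 target Mir34a at 583 kb with Mir34b and Mir34c both at 328 kb.

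Other list members at 10 to 50 kb were Mir193b (11.8 kb), Mir365-1 (16.1 kb), Mir132 (16.5 kb), Mir212 (16.8 kb), Mir328 (17.6 kb), Mir181c (18.2 kb), Mir181d (18.4 kb), Mir365-2 (21.2 kb), Mir130a (25 kb), Mir29a (29.2 kb), Mir29b-1 (29.5 kb) and Mir22 (46.7 kb). At 50 to 100 kb stood also Mir181b-2 (72.3 kb), Mir181a-2 (73.4 kb), Mirlet7a-2 (74.6 kb) and Mir128-1 (99.2 kb). Beyond 100 kb came Mir339 (114 kb), Mir29b-2 and Mir29c (both 204 kb), Mir146 (239 kb), Mir181a-1 and Mir181b-1 (both 262 kb), Mir10a (287 kb), Mir196a-1 (339 kb), Mir23b (350 kb), Mir27b and Mir24-1 (both 351 kb) and Mir128-2 (1140 kb). Members of one family therefore stood at very different distances, as Mir29a and Mir29c show.

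**Figure D4:**
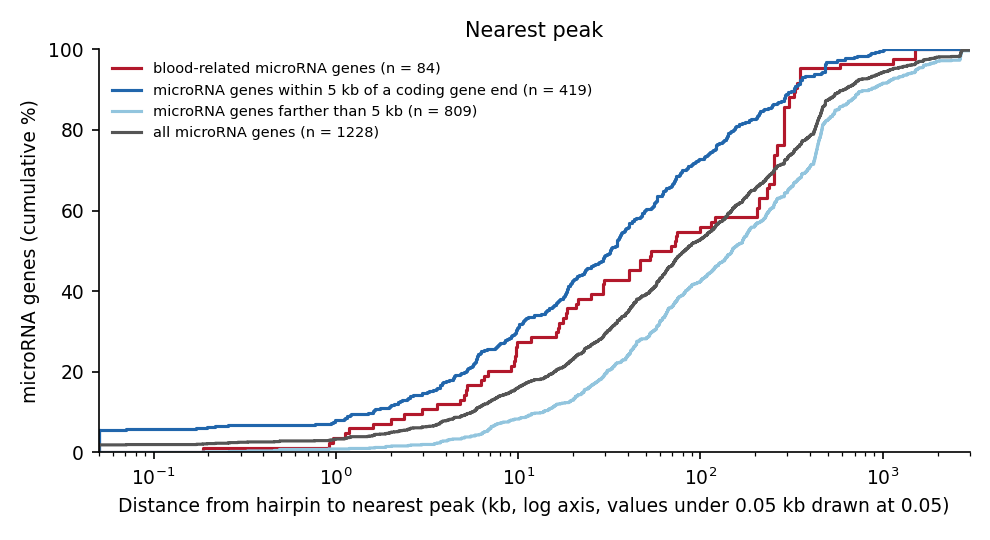
Cumulative share of microRNA genes (y axis, %) whose nearest peak lies within a distance (x axis, kb, log scale), for the 84 blood-related genes, the genes near and away from coding gene ends, and all 1228. The blood-related genes run between the 2 distance classes at 10 kb (27.4%, against 31.0% near and 8.28% away) and many lie beyond 100 kb.

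Transcripts that contain blood-related microRNAs were also examined at their own ends. Of the 84 genes 45 lie inside a coding or lncRNA gene, and for 12 of them that gene carried a gene-end peak, at 7 of 33 distinct hosts. Over all microRNA genes the share was 21.2% of coding hosts and 8.18% of lncRNA hosts. The 33 hosts of the blood list were not split by type, so 7 of 33 cannot be set against either share. Nor can 12 of 45, which counts microRNA genes and not hosts. The like count over all microRNA genes inside a host is not given here. Mcm7, a subunit gene of the replicative helicase and host of Mir106b, Mir93 and Mir25, had a peak of score 72.2 at its 5′ end. Vmp1, an autophagy gene that overlaps Mir21a, had one of 95.2 at its 5′ end, 99.2 kb from the hairpin, which is a different peak from the one at 2.37 kb. Nr6a1, a nuclear receptor gene and host of Mir181a-2 and Mir181b-2, had one of 100 at its 5′ end, and R3hdm1, host of Mir128-1, one of 54.1. The lncRNA hosts with a peak were Gm52902 (52.6, Mir196b), Gm36493 (67.0, Mir146b) and C430049B03Rik.

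Coding hosts carried peaks at their own ends more often than their microRNAs did. Most hosts were longer than 10 kb (579 of 675), so their end windows lie apart and cover more sequence. Of the 1228 microRNA genes 825 lie inside a coding gene, 121 inside a lncRNA gene only and 282 in neither, and 25, 4 and 12 of them carried a peak (3.03, 3.31 and 4.26%). Of the 675 coding hosts 143 carried a gene-end peak (21.2%, interval 18.2 to 24.5%), against 13.6% of the coding genes that host no microRNA. Among genes longer than 10 kb the shares were 20% of 579 hosts and 14.8% of 13382 other coding genes. Of 110 lncRNA hosts 9 carried one (8.18%, interval 3.81 to 15.0%), against 4.09% of other lncRNA genes. After Fam53c and Psmb5, the coding hosts with the highest scores were Med23 (228, host of Mir6905), a Mediator subunit gene, Mrpl21 (226, Mir6984), a mitochondrial ribosomal protein gene, Cdk12 (193, Mir5119), a transcription kinase gene, and Eif3b (167, Mir7038), a translation initiation factor gene. Srebf2, which drives cholesterol synthesis and hosts Mir33, had a peak of 109 and was picked after its value was seen. Expression of the hosts was not measured here.

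A smaller share of clustered than of single microRNA genes carried a peak, and the difference was not tested. Neighbouring microRNA genes no more than 10 kb apart formed 100 clusters of 2 or more, holding 385 genes. A peak was carried by 3 clusters (3%, interval 0.623 to 8.52%). A cluster counts when any of its members carries a peak, so this share is not comparable with the 3.34% of all microRNA genes. These were Mir2861 with Mir3960, the cluster of Mir99b, and that of Mir351 and Mir503, and each had 1 peak. Of clustered genes 5 of 385 carried a peak (1.30%) and of single genes 36 of 843 (4.27%). Near coding gene ends it was 3 of 91 clustered genes (3.30%) and 31 of 328 single ones (9.45%), and farther away 2 of 294 (0.680%) and 5 of 515 (0.971%). Members of a cluster are not independent, and 146 of the 385 clustered genes lie in only 4 clusters of 10 or more. None of these 4 clusters carried a peak. The 72 genes inside Sfmbt2 on chromosome 2 were 418 kb or more from a peak, and the 19 on the X chromosome from Mir743 to Mir465 were 2650 kb or more. In the imprinted region of chromosome 12, the 16 genes from Mir770 to Mir136 lay 35.0 kb or more from a peak, while the 39 from Mir379 to Mir3072 had one 1.64 kb beyond their last member. Many members of the Sfmbt2 cluster are near-identical copies, and whether reads could be placed there was not tested.

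Other microRNA lists were short. None of the 14 let-7 family genes carried a peak (0%, upper bound 23.2%), nor did the 10 muscle genes (upper bound 30.8%), the 8 liver and pancreas genes (36.9%), the 10 epithelial genes (30.8%), the 12 embryonic stem cell genes (26.5%) or the 6 vascular genes (45.9%). Of 19 neural genes Mir7b carried one (5.26%, interval 0.133 to 26.0%). Each of these intervals holds the 3.34% of all microRNA genes. Nearest to a peak among the let-7 genes without one were Mirlet7e at 1.13 kb and Mirlet7b at 1.87 kb, and among the vascular genes Mir145a at 3.59 kb and Mir143 at 3.77 kb.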

How the data were processed

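Peaks of the anti-Usp16 library were called by the authors with MACS in Galaxy, per the file headers, and each peak comes with a deposited score from that program. Bowtie, Picard and the build mm10 are named in the submitters' processing notes. Not given in the sources used here: versions, settings, any use of the IgG library in the call, and the scale of the score. Depth is unknown. Positions are 1-based, and the 33 peaks on other contigs were left out.

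Genes came from a RefSeq table of GRCm38.p6, the assembly mm10 names, which gives gene spans but no exons or untranslated regions. Strand was read from RefSeq microRNA and promoter tables, which list 1072 of the 1228 microRNA genes. The share of genes with a peak was counted with windows of 1 kb. Distances of 5 kb to a coding gene end and 10 kb between cluster members were used. No test was run, because there is 1 library per antibody. Set tests and random placements were not used.

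The genes named are all those with a peak away from coding gene ends, the 20 highest-scoring near them, the blood list and the clusters with a peak; 1 of the 20 is not reported here. The members and lists were chosen with earlier results of these data known. In the lists, 9 spellings matched no gene, most of them second spellings of a listed one. Computation used Python 3.11.15, pandas 2.3.3 and scipy 1.17.1. The overlap code was tested on simulated peaks. Alternatives were the score, window, overlap, distance, cluster gap, chromosomes and merging of peaks, and, chosen after seeing the data, removal of peaks at tRNA gene ends and all settings for the 5′ and 3′ split and the hosts.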

Additional observations from a re-analysis of the deposited data

How the results depend on the processing

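Of 85 recomputed values, 60 stayed within 1.5 times the reported count, or, for the median score, within its interval. With peaks at or above the median score, 17 microRNA genes carried a peak through 17 peaks of median score 93.4, 12 of them near a coding gene end, no cluster (0) and no blood-related gene (0) did, and 7 genes at 5′ ends, 1 at a 3′ end and 78 coding hosts did. With a window of 5 kb, 112 genes carried one through 100 peaks, 83 near and 29 away from coding genes, with 11 blood-related genes, 14 clusters, 47 genes at 5′ ends and 23 at 3′ ends. With 500 bp, with the midpoint in the window, or with 50% of the peak in the window, 1 blood-related gene and 1 gene at a 3′ end remained in each case. Without X and Y, 1 blood-related gene remained. With 1 kb in place of 5 kb for the distance to a coding gene, 14 genes counted as away. The count and share at 3′ ends and the blood-related count therefore depend on these settings. Fewer peaks or a wider window change them by construction. In each setting the share at 3′ ends was below that at 5′ ends. It was 0.524 against 4.52% with peaks at or above the median score and 12.0 against 30.3% with a window of 5 kb. Many peaks at microRNA genes score close to the lowest listed value, and weaker sites are not listed, so a missing peak does not show absent binding. No paired analysis was possible because there is 1 library per antibody and the result comes from no test.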

Other observations

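A band just outside the window held further microRNA genes that the counts leave out. A peak lay 1 to 2 kb from the hairpin of 20 of them, through 19 distinct peaks. The nearest of them was Mir5121 in Rpl13a, a ribosomal protein gene (1.11 kb, score 95.7). The highest score in this band was 142 at Mir7663 in Tbpl1, a gene of a TATA-binding-protein-like factor (1.64 kb), followed by 110 at Mir7052 in Josd2, a deubiquitinase gene (1.95 kb). Mir214, inside the lncRNA gene Dnm3os, had a peak of score 51.3 at 1.89 kb. These genes were picked after their values were seen, and no test was made.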
